A study of Mus musculus with 12 samples.

Results

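Chromatin accessibility was read at 10 genes of the Hippo pathway: the 4 TEAD transcription factor genes (Tead1, Tead2, Tead3 and Tead4), the genes of their coactivators YAP and TAZ (Yap1 and Wwtr1) and 4 genes that YAP and TAZ are known to switch on (Ccn1, Ccn2, Ankrd1 and Amotl2; Ccn1 and Ccn2 were once called Cyr61 and Ctgf). Every ATAC–seq peak of the deposited table that overlapped one of these genes, or the 25 kb on either side of it, was taken as a member, with genes placed by GENCODE M21 on mm10. The rule uses position only. It gave 182 peaks at the 10 genes, of 176680 peaks in the table, and every one of the 182 is 201 bases wide.

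ATAC–seq, in which the transposase Tn5 cuts and tags open DNA, was performed at day 2 of transgene induction on primary mouse embryonic fibroblasts (MEFs), prepared from wild-type C57BL/6N embryos at E13.5 and, per the study's methods, from the limbs of several pooled embryos. The labels put 12 libraries into 4 groups of 3, named MEF, Prox1_OE, 4in1_GFP_OE and 4in1_Prox1_OE. Cells of every group carried lentiviral rtTA (FUW-rtTA), which switches on tetO promoters, and were kept in doxycycline at 2 µg/ml. The 4in1_GFP_OE group also received 4in1 (LV.4TF), a cassette of transcription factors that drives fibroblasts towards induced hepatocytes, and tetO-GFP. The 4in1_Prox1_OE group received the same cassette with mouse Prox1, a homeodomain transcription factor of hepatocytes, in place of GFP (tetO-FLAG-mmProx1). The MEF group, with rtTA alone, and the Prox1_OE group, with rtTA and Prox1 but no 4in1, were not analysed here. The share of cells that took up each vector was not given in the sources used here. A group mean pools all cells of a culture, so a region that is less open in every cell cannot be told apart from a region that is closed in some of the cells.

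In the Hippo pathway a cascade of MST and LATS kinases phosphorylates YAP and TAZ and holds them in the cytoplasm. When the cascade is inactive, as in spread fibroblasts on a stiff surface, YAP and TAZ enter the nucleus. They do not bind DNA themselves and reach it through the TEAD factors, which recognise the core GGAATG. Much of this binding is known to lie in distal enhancers, often beside sites of AP-1, the factor of Fos and Jun proteins that recognises TGACTCA.

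The table gives for each peak the authors' mean over the libraries of each group, as a log2 normalized read count, and the mean over both groups (mean concentration). The difference used here is the log2 mean of 4in1_Prox1_OE minus that of 4in1_GFP_OE, and a value below 0 means that the region was less accessible with Prox1. With group means alone there is no replicate error and no test, and the depth of each library is unknown. A difference of at least 2-fold (1 on the log2 scale) was counted instead and set beside the share of all peaks that reach it. Over all peaks the median difference was -0.42 and the total of normalized reads with Prox1 was 0.751 of that with GFP, so differences are also given after centring on this median. The 3 peaks over coding exons of Prox1, whose sequence the vector also carries, had 3.42 to 16.2 normalized reads with GFP and 1632 to 6847 with Prox1, in the direction of the labels. All 8 fibroblast markers had a promoter peak, with differences of -0.64 to -0.04, and none of the 3 hepatocyte genes Alb, Ttr and Apoa1 had one. Promoter peaks were also present at 3 of 3 endothelial, 3 of 3 epithelial and 2 of 3 blood markers. Those of the endothelial genes Cdh5 (-1.45) and Pecam1 (304 and 101 normalized reads) and of the epithelial gene Epcam (1.00) passed 2-fold. Those of endothelial Tek (-0.68), epithelial Cdh1 (0.13) and Krt8 (-0.76), and the blood genes Cd68 (-0.51) and Spi1 (0.20) did not. The part of such cell types in the values below was not tested.

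Most peaks at the Hippo genes had a lower mean with Prox1, at about the share seen over the whole table. Of the 182 peaks, 143 (78.6%) had a negative difference, beside 72.3% of all peaks, and their median difference was -0.53. At least 2-fold lower were 41 peaks (22.5%, beside 24.4% of all peaks), and at least 2-fold higher were 11 (6.04%, beside 8.33%). After centring on the median of all peaks, 106 of the 182 lay below 0, 10 were at least 2-fold lower (8.64% of all peaks were) and 16 at least 2-fold higher (13.4% of all peaks were).

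The targets of the pathway held the largest share of peaks at least 2-fold lower with Prox1 before centring, while a lower mean of any size was seen at 76 of 95 peaks of the TEAD genes, 37 of 49 of the coactivators and 30 of 38 of the targets. After centring, 49, 30 and 27 of the 95, 49 and 38 peaks lay below 0. At the 4 TEAD genes 13 of 95 peaks (13.7%) were at least 2-fold lower. At the 2 coactivator genes 12 of 49 (24.5%) were so and at the 4 target genes 16 of 38 (42.1%), beside 24.4% of all peaks. Their median differences were -0.42, -0.54 and -0.72. Each target gene lay between 33.3% (Ccn1 and Ankrd1) and 50.0% (Ccn2), each TEAD gene between 0% (Tead2) and 17.6% (Tead1). The order of the 3 classes in this count rests on where 0 lies: after centring, 4 TEAD, 4 coactivator and 2 target peaks were still at least 2-fold lower. The shares were then 4.21%, 8.16% and 5.26%, beside 8.64% of all peaks. By gene, these peaks were 3 each at Tead1 and Wwtr1 and 1 each at Tead3, Yap1, Ccn1 and Amotl2. Tead2, Tead4, Ccn2 and Ankrd1 had none.

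Position and strength of the peaks are given beside their differences. None of the 12 peaks within 1 kb of a start site of the member genes themselves reached 2-fold. Of 13 peaks within 1 kb of a start site of another gene, 1 was 2-fold lower. The other 157 peaks held 40 of the 41 lower peaks (25.5% of them, beside 27.0% of all peaks beyond 1 kb) and all 11 higher ones. Of the 11 higher peaks, 9 were weak, with a mean concentration below the median of all peaks (6.71). Over the whole table, 13158 of the 14723 peaks that were at least 2-fold higher were weak in this sense. Of the 41 lower peaks, 28 (68.3%) were at or above the median, near the share among all 182 peaks (112, or 61.5%); 54.3% of the lower peaks of the whole table were.

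**Figure D1:**
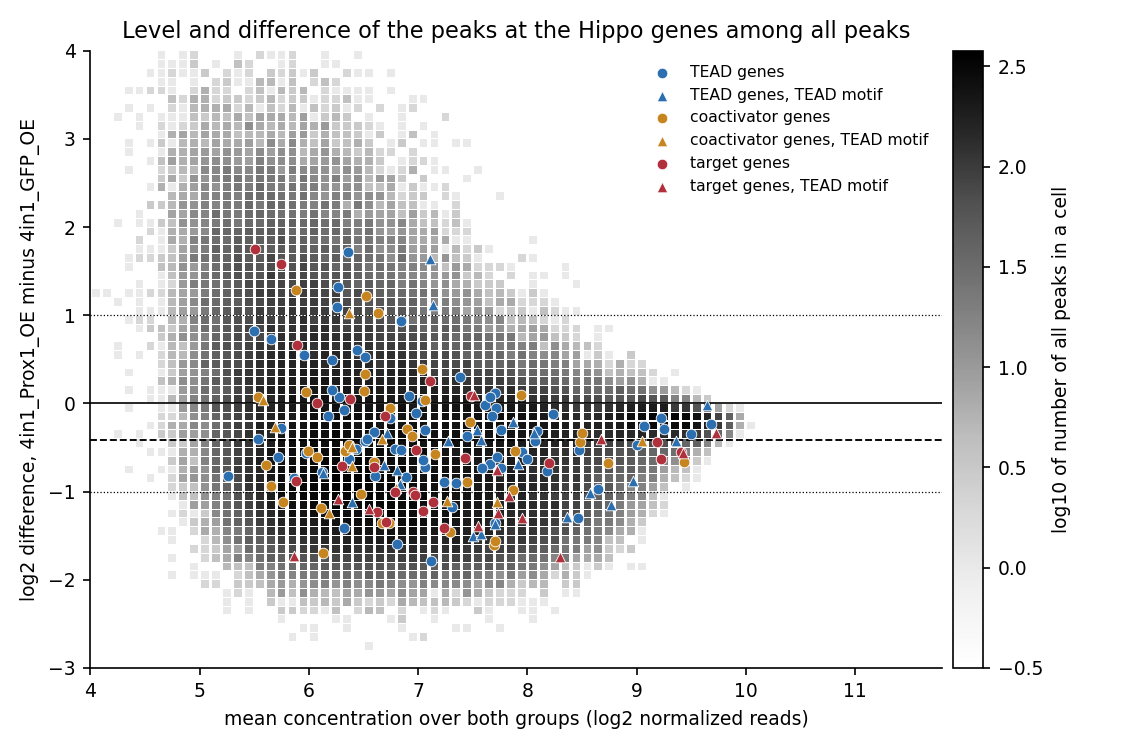
Mean concentration over both groups (x axis, log2 normalized reads) and log2 difference (y axis) of the 182 peaks, coloured by class, with triangles for peaks that hold GGAATG. Grey cells count all 176680 peaks (110 peaks above a difference of 4 are not drawn), the dashed line is the median of all peaks at -0.42 and dotted lines mark 2-fold. Of the 11 coloured points above the upper dotted line, 9 lie to the left of the median concentration of 6.71, and of the 41 below the lower one, 28 lie at or to the right of it.

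How the regions looked in sequence is shown at 5 peaks. They have the 3 lowest and the 2 highest differences among the named peaks that hold the TEAD core (the promoter peaks and, for each gene, the extremes among peaks of at least median concentration), and stand here so that the motifs in lower and higher peaks can be compared. Capitals mark GGAATG or CATTCC (TEAD) and TGACTCA or TGAGTCA (AP-1), on the strand of the gene named, in GRCm38.p6 (mm10). The lower peaks are chr3:145632966-145633166 (minus strand) at Ccn1, chr17:28311796-28311996 (minus strand) at Tead3 and chr10:24589367-24589567 (plus strand) at Ccn2.
Ccn1 lower peak: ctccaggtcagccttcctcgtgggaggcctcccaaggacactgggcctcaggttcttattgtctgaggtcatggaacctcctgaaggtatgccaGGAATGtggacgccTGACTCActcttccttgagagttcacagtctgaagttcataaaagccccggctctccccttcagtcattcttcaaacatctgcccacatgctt
Tead3 lower peak: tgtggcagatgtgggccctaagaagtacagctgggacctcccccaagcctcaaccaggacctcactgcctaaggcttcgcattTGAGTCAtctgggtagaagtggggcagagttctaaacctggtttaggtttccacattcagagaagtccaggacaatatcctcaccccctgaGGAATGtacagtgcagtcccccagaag
Ccn2 lower peak: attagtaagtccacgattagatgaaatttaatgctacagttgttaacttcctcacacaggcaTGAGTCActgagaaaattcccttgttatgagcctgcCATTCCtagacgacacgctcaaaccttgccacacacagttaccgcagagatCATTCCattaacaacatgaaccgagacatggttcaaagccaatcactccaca
Each of these 3 peaks holds an AP-1 site beside the TEAD core, 8 bases from it at Ccn1, 84 at Tead3 and 29 at Ccn2, where a further TEAD core follows. This is not typical of the lower peaks: of the 18 peaks at the 10 genes that hold the TEAD core and were at least 2-fold lower, 5 hold an AP-1 site. The higher peaks are chr7:45208963-45209163 (plus strand), in an intron of Dkkl1 near Tead2, and chr6:128225103-128225303 (minus strand), in an intron of Tead4.
Tead2 higher peak: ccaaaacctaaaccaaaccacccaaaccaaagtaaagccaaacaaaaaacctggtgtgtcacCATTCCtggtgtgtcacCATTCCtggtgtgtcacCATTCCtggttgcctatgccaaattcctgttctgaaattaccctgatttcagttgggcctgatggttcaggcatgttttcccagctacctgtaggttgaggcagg
Tead4 higher peak: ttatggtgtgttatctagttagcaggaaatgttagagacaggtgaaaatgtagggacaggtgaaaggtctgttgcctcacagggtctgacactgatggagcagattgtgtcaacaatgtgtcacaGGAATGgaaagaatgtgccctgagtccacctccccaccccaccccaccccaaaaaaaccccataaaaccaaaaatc
Neither higher peak holds an AP-1 site, but most peaks hold none (38 of the 182 do). Over the whole table, 346 of the 2761 peaks with the core that were at least 2-fold higher hold one. The higher peak near Tead2 has 3 TEAD cores within a repeated stretch, and the one in Tead4 has 1. A match of letters is a description and does not show that a TEAD or AP-1 protein was bound.

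Tead1, the TEAD factor gene with the longest locus, held 51 of the peaks (chr7:112679318-112906807, mm10, plus strand), 44 of them in the gene itself. A lower mean with Prox1 was seen at 43 of the 51. At least 2-fold lower were 9, and 2 were higher by as much. The promoter peak lay over the untranslated first exon and had 806 normalized reads with GFP and 794 with Prox1, a difference of -0.02. Inside the gene stood the lowest difference of all 182 peaks, an intronic peak 24.3 kb from the start with 215 normalized reads with GFP and 62.5 with Prox1 (-1.79, or 3.45-fold lower). A further intronic peak at 173 kb had 168 and 55.6 normalized reads (-1.60). Each of these 2 peaks holds an AP-1 site and no GGAATG. The highest difference among peaks of at least median concentration was in an intron 6.81 kb from the start, with 149 normalized reads with GFP and 184 with Prox1 (0.30). The 2 peaks that were at least 2-fold higher, at 101 and 198 kb, were weak, with 44.1 and 38.2 normalized reads with GFP and 110.1 and 126 with Prox1.

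A run of intronic peaks near the start of Tead1, singled out after the values were seen, was lower throughout. The 3 peaks from 18.0 to 24.3 kb had differences of -1.30, -1.29 and -1.79. The first had 502 normalized reads with GFP and 204 with Prox1 and the next 468 and 191, so these were strong peaks. This stretch stood apart from the promoter peak, whose means were close to each other. Of the other peaks of Tead1 that were at least 2-fold lower, the strongest lay 15.9 kb upstream, in an intron of 2310014F06Rik, with 599.8 and 271 normalized reads (-1.15). Intronic peaks at 128 and 135 kb had differences of -1.36 and -1.50, and both hold GGAATG. The remaining 2 were weak, an intronic peak at 159 kb (-1.41) and an intergenic one at 252 kb (-1.12).

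Tead2 (chr7:45215753-45233644, plus strand), a TEAD gene best known from the early embryo, had 9 peaks and no peak that was 2-fold lower. Its only peak within the gene was the promoter peak, with 421 normalized reads with GFP and 292 with Prox1 (-0.53). The other 8 peaks lie outside it, in Ccdc155, Dkkl1, Cd37 and Slc6a16, the neighbouring protein-coding genes in the window. The lowest difference was in an intron of Ccdc155, with 212 and 114 normalized reads (-0.90). The highest, and the only one past 2-fold, was in an intron of Dkkl1, 6.69 kb upstream of Tead2, with 89.1 normalized reads with GFP and 193 with Prox1 (1.11).

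Tead3 (chr17:28331671-28350817, minus strand) had 15 peaks, of which 14 had a lower mean with Prox1 and 2 were at least 2-fold lower. Its median of -0.35 was above that of all peaks, so that it turned to 0.07 after centring. The promoter peak had 583.5 normalized reads with GFP and 489 with Prox1 (-0.26). The lowest difference was in an intergenic peak beyond the gene's end, 38.9 kb from the start (printed), with 281 and 101 normalized reads (-1.48). The other peak past 2-fold was intergenic, 20.6 kb upstream, with 301 and 117 normalized reads (-1.36). Both hold an AP-1 site, and the first also holds GGAATG. The highest difference among peaks of at least median concentration lay over an exon of Rpl10a, a ribosomal protein gene, with 629.7 and 562 normalized reads (-0.16). The window also takes in Fance and Tulp1.

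Tead4 (chr6:128224288-128300823, minus strand), the TEAD gene required for the trophectoderm of the embryo, had the highest median of the 10 loci. Of 20 peaks, 13 had a lower mean with Prox1, 2 were at least 2-fold lower and 2 at least 2-fold higher. The median was -0.25, or 0.16 after centring. The promoter peak had 757 normalized reads with GFP and 561 with Prox1 (-0.43), and the lowest difference was intronic, 66.5 kb from the start, with 219.7 and 97.2 normalized reads (-1.18). The highest was intronic too, 75.6 kb from the start, with 67.1 normalized reads with GFP and 209 with Prox1 (1.64). An intronic peak at 23.4 kb was also higher with Prox1, with 79.2 and 151 normalized reads (0.93). Of the 11 peaks between 20.9 and 75.6 kb from the start, a stretch picked after the values were seen, 7 had a higher mean with Prox1, and 1 was 2-fold lower. The second peak that was at least 2-fold higher, at 45.3 kb, was weak, with 48.8 and 104 normalized reads. Towards the start the picture differed, and a strong intronic peak at 14.9 kb, which holds GGAATG, had 511 normalized reads with GFP and 252 with Prox1 (-1.02).

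Yap1 (chr9:7931999-8004596, minus strand), which encodes the coactivator YAP, had 20 peaks. Of these, 16 had a lower mean with Prox1, 5 were at least 2-fold lower and 2 at least 2-fold higher. The promoter peak, just upstream of the first exon, had 609 normalized reads with GFP and 453 with Prox1 (-0.43). Neighbouring peaks beyond the end of the gene differed from each other. The intergenic peak 76.0 kb from the start had the lowest difference, with 311 normalized reads with GFP and 106 with Prox1 (-1.56), and the peak at 74.6 kb had 132 and 135 (0.04), the highest among peaks of at least median concentration. The other 4 peaks that were at least 2-fold lower were intronic. The strongest of them, at 42.6 kb, had 289.5 and 133 normalized reads (-1.12) and holds GGAATG, and the other 3 were weak, with 74.5 to 119 normalized reads with GFP and 34.3 to 58.4 with Prox1. Both peaks past 2-fold higher were weak too, one in an intron with 34.3 and 84.0 normalized reads (1.29) and one upstream with 65.7 and 133 (1.02). Cfap300 reaches into this window.

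Wwtr1 (chr3:57455649-57575910, minus strand), which encodes the coactivator TAZ, had 29 peaks, 21 of them with a lower mean with Prox1. The promoter peak had 846 normalized reads with GFP and 535 with Prox1 (-0.66), the lowest difference of the 10 promoter peaks. The lowest difference among peaks of at least median concentration lay over a coding exon 74.1 kb from the start, with 312 and 103 normalized reads (-1.60, or 3.04-fold lower). The highest was intronic, at 103 kb, with 114 and 149 normalized reads (0.39). All 7 peaks of Wwtr1 that were at least 2-fold lower lay in the gene between 53.9 and 95.0 kb from the start, a stretch of 11 peaks noticed after the values were seen. The stretch was not low throughout: 3 of its other peaks, at 65.5, 72.2 and 88.3 kb, had differences of -0.54, -0.40 and -0.34. At 70.9 kb an intronic peak had 229.5 and 83.5 normalized reads (-1.46), and at 89.5 kb one with GGAATG had 210.2 and 97.4 (-1.11). A weak peak at 63.5 kb had the lowest difference of the locus, with 107 and 33.1 normalized reads (-1.70). The remaining peak of the stretch was at least 2-fold higher, a weak one with 54.5 normalized reads with GFP and 110.5 with Prox1 (1.02). The other higher peak was also weak, at 9.03 kb, with 55.4 and 129 normalized reads (1.22). Tm4sf4 is the other protein-coding gene in the window.

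The target genes are small, and most of their peaks lay outside the transcribed sequence. Ccn1 (chr3:145646976-145649981, minus strand) encodes a secreted matrix protein that binds integrins. It had 9 peaks, of which 6 had a lower mean with Prox1, 3 were at least 2-fold lower and 1 was at least 2-fold higher. The lowest difference was in an intergenic peak 16.9 kb from the start, beyond the end of the gene, the one printed, with 485 normalized reads with GFP and 145 with Prox1 (-1.75, or 3.35-fold lower). With a mean concentration of 8.30, it was well above the median of all peaks (6.71). The promoter peak had 818 and 554 normalized reads (-0.56). The other 2 lower peaks stood 21.4 kb from the start (104 and 49.2 normalized reads) and 25.0 kb upstream of it (270.5 and 104). All 3 lower peaks hold GGAATG. The highest difference was in a weak peak at 24.5 kb, with 20.9 normalized reads with GFP and 70.2 with Prox1 (1.75).

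Ccn2 (chr10:24595442-24598683, plus strand), the connective tissue growth factor gene and a common readout of YAP activity, had the lowest median of the 10 loci, at -0.88. Of its 10 peaks, 9 had a lower mean with Prox1, 5 were at least 2-fold lower (24.4% of all peaks were) and none was 2-fold higher. After centring, none of the 10 was at least 2-fold lower. The promoter peak, within the gene over coding and untranslated first exon sequence, had 806 normalized reads with GFP and 549.7 with Prox1 (-0.55). The lowest difference among peaks of at least median concentration was 5.98 kb upstream, in an intron of the neighbouring transcript Gm15270, with 352 and 143 normalized reads (-1.30). Of the 4 upstream peaks, 3 were at least 2-fold lower and the same 3 hold GGAATG. They had 131, 307 and 352 normalized reads with GFP and 56.9, 148 and 143 with Prox1. Beyond the gene, an intergenic peak at 7.82 kb had 192 and 88.9 normalized reads (-1.11), and a weak one at 10.5 kb had 149.6 and 58.7 (-1.35). The highest difference was 27.3 kb from the start, with 126 and 149.9 normalized reads (0.25).

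Ankrd1 (chr19:36111961-36120099, minus strand), which encodes an ankyrin repeat protein of muscle that YAP induces in many cells, had 6 peaks. Its promoter peak was the only promoter peak of the 10 with a higher mean with Prox1, at 176 normalized reads with GFP and 188 with Prox1 (0.10), and it was also the weakest of the 10. The intronic peak 3.76 kb from the start had 148 and 73.6 normalized reads (-1.01), and the intergenic peak 9.51 kb from it had 169 and 82.5 (-1.04). The strongest peak of the locus, 9.32 kb upstream, had 464 and 351 normalized reads (-0.40). A weak peak in an intron of Rpp30 was higher with Prox1, at 26.8 and 80.4 normalized reads (1.58).

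Amotl2 (chr9:102716672-102733418, plus strand) encodes an angiomotin protein that binds YAP and restrains it, so that this target is also a regulator. It had 13 peaks, 11 with a lower mean with Prox1, 6 at least 2-fold lower (1 after centring) and none 2-fold higher. Its promoter peak was the strongest of the 182, with 948 normalized reads with GFP and 749 with Prox1 (-0.34). The 9 peaks beyond the gene, 17.5 to 38.7 kb from the start, held 5 of the 6 lower peaks. The lowest of at least median concentration stood 21.9 kb from the start with 219 normalized reads with GFP and 82.2 with Prox1 (-1.41), and the highest stood 19.6 kb from it with 174 and 184 (0.08). Peaks at 35.1 and 38.7 kb, in introns of Gm5627, had 299 and 185 normalized reads with GFP and 127 and 79.3 with Prox1. A weak peak at 31.5 kb, which holds GGAATG, had 89.5 and 27.0 normalized reads (-1.73).

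**Figure D2:**
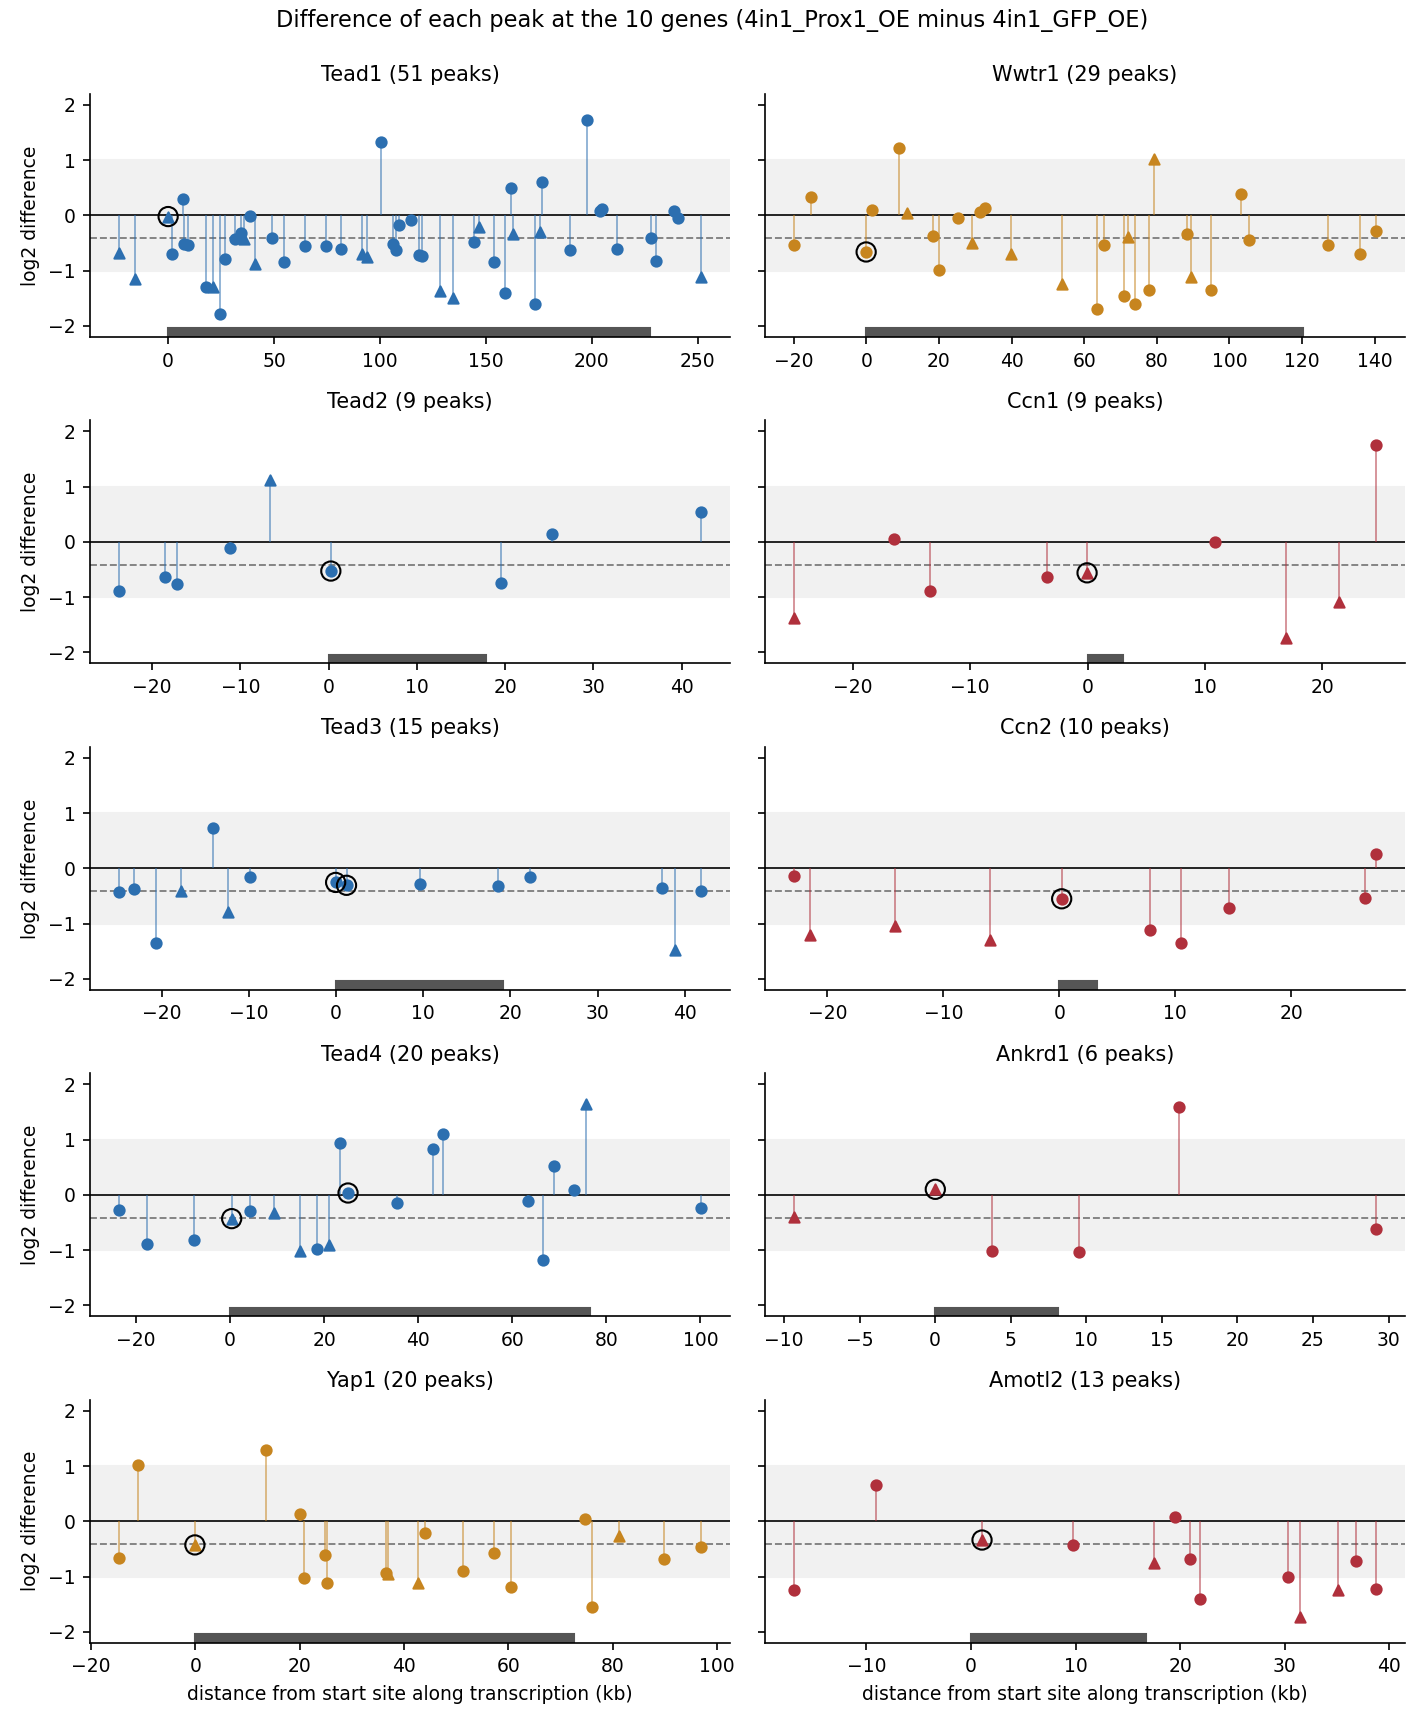
Log2 difference of each peak (y axis) by its distance from the gene's start site along the direction of transcription (x axis, kb), 1 panel a gene. The bar at the foot is the gene, triangles hold GGAATG, black circles mark peaks within 1 kb of a start site of the gene, the grey band spans less than 2-fold and the dashed line is the median of all peaks at -0.42; the circled peaks stay inside the band and the deepest points lie away from them, as in Tead1 at 24.3 kb and Ccn1 at 16.9 kb.

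The promoter peaks of the 10 genes stayed within 2-fold, and they were also stronger than the distal ones. The 12 peaks at the genes' own start sites had a median concentration of 9.21 and a median difference of -0.38, beside 6.90 and -0.56 for the 157 peaks away from start sites. Centred within 10 classes of like concentration, a setting added after the data were seen, the medians were close, at -0.12 and -0.14. Of the 10, 9 had a lower mean with Prox1 (8 where the peak nearest to any start site is taken, since that of Tead4 has a difference of 0.03) and none reached 2-fold, where 10.3% of all 27533 peaks within 1 kb of a start site were at least 2-fold lower. Their differences ran from -0.66 at Wwtr1 to 0.10 at Ankrd1 with a median of -0.43, beside a median of -0.22 over all peaks near start sites. Among those, Wwtr1 stood at percentile 20.0, Ccn1 at 23.8, Ccn2 at 24.1 and Tead2 at 25.2. Tead1 stood at percentile 74.6 and Ankrd1 at 81.0. After centring on the median of all peaks, 6 remained below 0, while Tead1 (0.40), Tead3 (0.16), Ankrd1 (0.52) and Amotl2 (0.08) lay above it. Except at Ankrd1, these were strong peaks, each at or above percentile 92.0 of concentration.

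**Figure D3:**
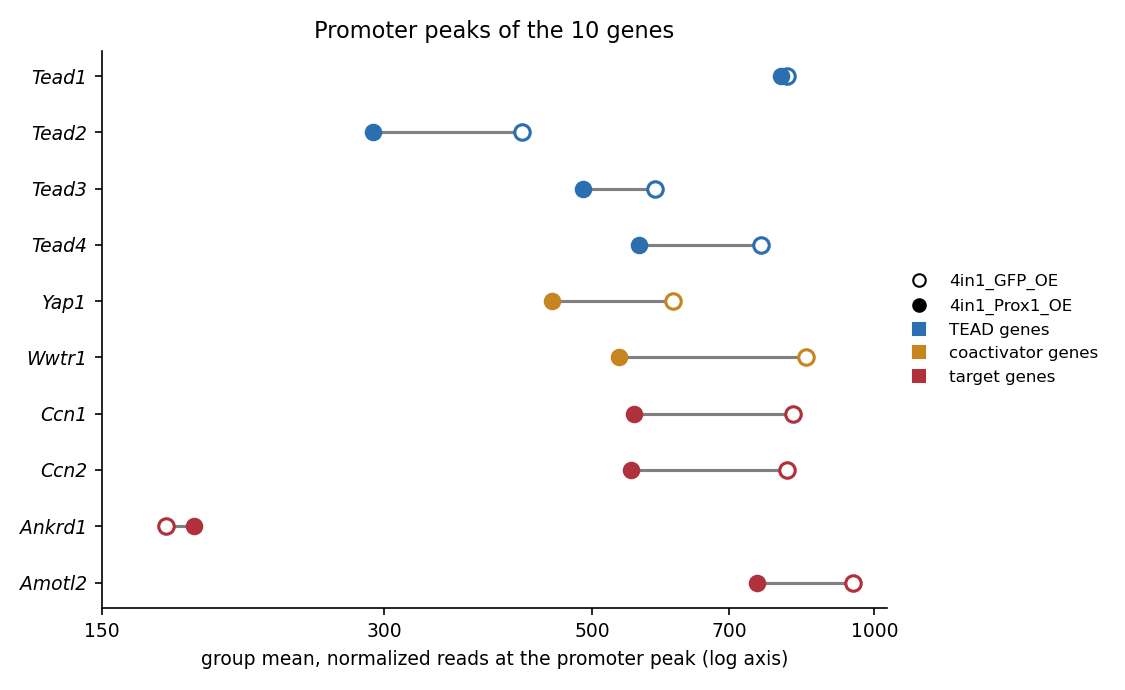
Normalized reads at the promoter peak of each gene (x axis, log scale), as the authors' mean for 4in1_GFP_OE (open) and 4in1_Prox1_OE (filled), coloured by class. The filled point is to the left of the open one at 9 genes, by most at Wwtr1 (846 to 535), the points of Tead1 nearly coincide (806 and 794) and the order is turned at Ankrd1 (176 and 188).

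Of the 4 promoter peaks of target genes, 3 reach beyond annotated exons (that of Ccn2 lies wholly within its first exon), and the sequence of that part is shown to let their TEAD cores be seen. It is from the GRCm38.p6 assembly (mm10), on the strand of the gene, with GGAATG or its complement CATTCC in capitals. That of Ccn1 is chr3:145649982-145650118 (minus strand), that of Ankrd1 chr19:36120100-36120186 (minus strand) and that of Amotl2 chr9:102717632-102717667 (plus strand).
Ccn1 promoter: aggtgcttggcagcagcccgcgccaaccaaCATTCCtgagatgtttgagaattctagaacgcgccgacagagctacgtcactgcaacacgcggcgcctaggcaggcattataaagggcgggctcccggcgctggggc
Ankrd1 promoter: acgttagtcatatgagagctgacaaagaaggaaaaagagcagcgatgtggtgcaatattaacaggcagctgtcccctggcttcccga
Amotl2 promoter: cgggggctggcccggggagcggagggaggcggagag
The promoter of Ccn1 holds 1 core, CATTCC, in this part. The parts of Ankrd1 and Amotl2 hold none, and the core that the search found in each of these 2 peaks lies within the exon.

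The share of peaks at least 2-fold lower was larger with the TEAD core than without it, at these genes and over the whole table, but the gap at these genes was smaller for a longer form of the motif. GGAATG or its complement was found in 47 of the 182 peaks (25.8%), beside 20.1% of all peaks. Peaks with the core had a median difference of -0.75 and 18 of 47 (38.3%) were at least 2-fold lower. Those without it had a median of -0.47 and 23 of 135 (17.0%) were so. Over all peaks these shares were 32.5% and 22.4%. After centring on the median of all peaks, 4 of the 47 (8.51%) and 6 of the 135 (4.44%) were still so. Of all peaks, 12.1% with the core and 7.77% without it were. With the longer form AGGAATG, found in 23 peaks, the medians at these genes were close, at -0.56 with it and -0.53 without, and 30.4% and 21.4% were at least 2-fold lower. Over all peaks the medians for the longer form were -0.78 and -0.39 and the shares 37.5% and 23.1%. Away from start sites, 18 of 39 peaks with the core (46.2%) were at least 2-fold lower and 22 of 118 without it (18.6%), beside 33.6% and 25.2% of all such peaks. After centring these shares were 10.3% and 5.08%, beside 12.7% and 8.86% of all such peaks. At the target genes the core was in 13 of 38 peaks (34.2%), and 8 of these 13 were at least 2-fold lower. At the TEAD genes it was in 23 of 95, and 7 of these were so. At the coactivator genes it was in 11 of 49, of which 3 (27.3%, beside 24.5% of the class) were at least 2-fold lower and 1 was at least 2-fold higher. After centring, 2 of the 13 at the target genes (15.4%) were still at least 2-fold lower, beside 12.1% of all peaks with the core. At the TEAD genes 2 of the 23 were, and at the coactivator genes 0 of the 11. Before centring, no peak with the core at the target genes was 2-fold higher, beside 7.78% of all peaks with the core. At start sites the core was in 6 of the 12 peaks of the 10 genes, beside 12.2% of all peaks there. Peaks with the core were also stronger at these genes, with a median concentration of 7.54 beside 6.92 without it, so the peaks were also read relative to others of like strength. With all peaks split by concentration into 10 classes of equal size and centred within each, a setting added after the data were seen, peaks with the core had a median of -0.21 and peaks without it of -0.02. Over the whole table these medians were -0.18 and 0.03.

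The AP-1 site TGACTCA, or its complement TGAGTCA, was in 38 of the 182 peaks (20.9%), beside 23.0% of all peaks. Of these 38, 15 (39.5%) were at least 2-fold lower, beside 40.8% of all peaks with the site, and 26 of the 144 without it (18.1%), beside 19.5%. None of the 12 peaks at the genes' own start sites held it, beside 10.9% of all peaks near start sites. Both motifs stood together in 7 peaks, which were named after their values were seen. All 7 had a lower mean with Prox1, beside 84.7% of all peaks with both motifs, with differences from -1.75 to -0.89, and 5 were at least 2-fold lower, beside 44.5% of all 7659 peaks with both motifs. The 7 were also stronger, with a median concentration of 7.83 beside 6.98 over all peaks with both motifs. After centring, 2 of the 7 were at least 2-fold lower, beside 18.4% of all peaks with both motifs. The 7 peaks lay at Ccn1, Tead3, Ccn2 (2 peaks), Amotl2, Yap1 and Tead1. The number of bases between the motifs ran from 8 at Ccn1 to 84 at Tead3, so that no common spacing was seen.

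Against other loci, Ccn2 had a low median, and the place of Amotl2 depended on the centring. Of protein-coding genes with 5 or more peaks in the same kind of window, 15988 in all, the median difference of a locus was -0.28 (quartiles -0.50 and -0.14). Neighbouring genes share peaks in this count. Ccn2 stood at percentile 4.94 and Amotl2 at 9.03, followed by Yap1 at 15.0 and Ccn1 at 15.1. Tead1, Tead2, Ankrd1 and Wwtr1 stood between 21.1 and 25.6, Tead3 at 40.3 and Tead4 at 54.7. After the same centring within classes of concentration, the 2 lowest of the 10 loci were Ccn2 (-0.39) and Ccn1 (-0.37), followed by Yap1 (-0.19) and Amotl2 (-0.17), which thus lost its second place, and the 2 highest were Tead3 (0.12) and Tead4 (0.30).

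Other genes of the pathway, on lists from general knowledge, were read with the same window. The kinase core (MST, LATS and their adaptors; 7 genes) held 102 peaks, of which 18 (17.6%) were at least 2-fold lower and 6 higher, with a median of -0.30. Its 2 lowest loci were Mob1b (-1.12) and Sav1 (-0.70), genes of kinase adaptors, and its 2 highest were Lats1 (-0.13) and Mob1a (-0.21). The upstream regulators (13 genes) held 296 peaks, 69 (23.3%) lower and 14 higher, with a median of -0.43. Amot (-1.26) and Amotl1 (-0.88), the other angiomotin genes, were its 2 lowest loci, and Taok2 (-0.22) and Frmd6 (-0.20) its 2 highest. All 6 peaks of Amot had a lower mean with Prox1 and 5 were at least 2-fold lower, beside 72.3% and 24.4% of all peaks. After centring, 1 of the 6 was at least 2-fold lower.

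The vestigial-like genes, whose proteins compete with YAP and TAZ for TEAD, held 55 peaks, 15 (27.3%) lower and 1 higher, with a median of -0.65. Vgll1 (-1.35) rested on 1 peak, Vgll3 had a median of -0.97 over 15 peaks, Vgll4 of -0.53 over 35 and Vgll2 of -0.04 over 4. A further 17 genes known as targets of YAP and TAZ held 442 peaks, of which 140 (31.7%) were at least 2-fold lower and 23 (5.20%) higher, with a median of -0.62, or -0.20 after centring. The 2 lowest of these 17 loci were Ccdc80 (-0.98) and Dock5 (-0.85) and the 2 highest Fjx1 (-0.21) and Birc5, at -0.01. A median below that of all peaks was seen at 13 of the 17. It was also seen at 3 of 7 kinase core loci, 7 of 13 upstream regulators and 3 of 4 vestigial-like loci. Over all protein-coding loci with 5 or more peaks the median was higher, at -0.28. Lats2, just below the cut at -0.42, stood at percentile 32.3 of them. Promoter peaks of 3 of the 17 were at least 2-fold lower, beside 10.3% of all peaks near start sites: Axl had 545 normalized reads with GFP and 256 with Prox1, Ccdc80 463 and 223, and Myof 545 and 265. No promoter peak of the kinase core, the upstream regulators or the vestigial-like genes reached 2-fold in either direction. Beside 24.4% of all peaks, the share at least 2-fold lower was thus 42.1% at the 4 target genes and 31.7% at the other targets, 27.3% at the vestigial-like genes, 24.5% at the coactivator genes, 23.3% at the upstream regulators, 17.6% in the kinase core and 13.7% at the TEAD genes. After centring, this order was lost: beside 8.64% of all peaks, the share was 5.26% at the 4 target genes, 9.5% at the other targets, 3.64% at the vestigial-like genes, 8.16% at the coactivator genes, 7.77% at the upstream regulators, 3.92% in the kinase core and 4.21% at the TEAD genes. These shares carry no test.

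**Figure D4:**
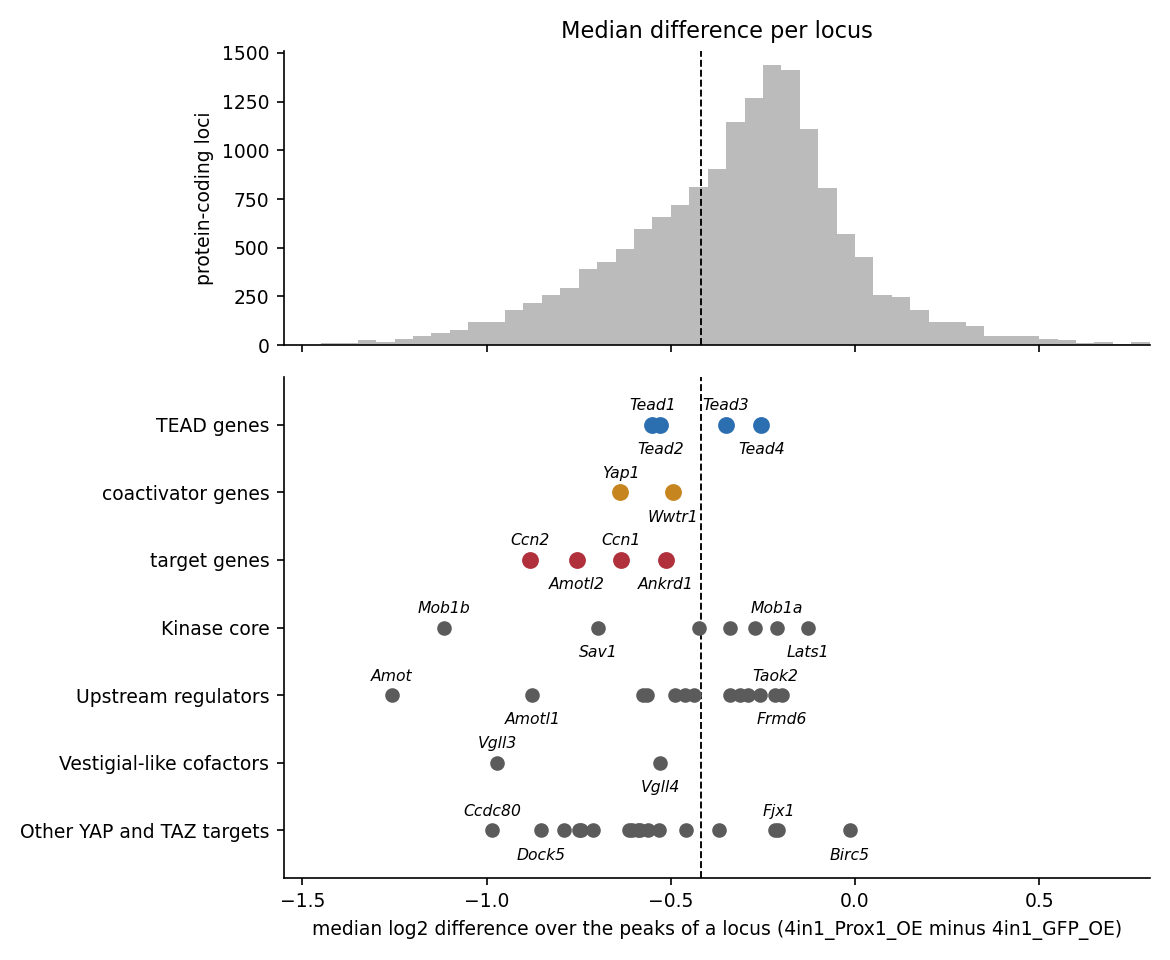
Top, number of protein-coding loci (y axis) by the median log2 difference of their peaks (x axis); 55 loci outside the drawn range are left out. Bottom, the median of each of the 10 genes (coloured) and of other pathway genes with 5 or more peaks (grey) on the same axis, with the 2 lowest and 2 highest of each list named; the dashed line is the median of all peaks at -0.42, and the 4 target genes all lie to its left while Tead3 and Tead4 lie to its right.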

How the data were processed

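ATAC–seq libraries (12, in 4 groups of 3) were processed by the authors. Per the labels and methods, reads were trimmed (Trimmomatic 0.38), aligned to mm10 (Bowtie2 2.3.4.3), cleaned and recalibrated for Tn5 bias (SAMtools 1.10, Picard 2.18.16, bedtools 2.27.1), and peaks were called with MACS2 2.1.2, although the reporting summary names Genrich. DiffBind 3.4.11 counted reads, following the vignette of that version. The methods do not spell out its normalization setting, which decides where 0 lies in every difference. The values the authors deposited are log2 mean normalized read counts, over both groups and within each. The authors' fold change, p-value and FDR columns, and a pair of lists of their called peaks, were not used.

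Differences of group means were computed with Python 3.11.15, numpy 2.4.6 and pandas 2.3.3, with pseudocount 0 and no filter. A separate check on simulated data repeated the 2-fold call, the median and the motif search, and did not run the code that gave the results. A promoter peak is the strongest within 1 kb of a start site of the gene. Sequence came from GRCm38.p6 (pysam 0.24.0), and both motifs were searched on both strands. Depth per library is unknown. Named in the text were, per gene, the promoter peak and the lowest and highest differences among peaks of at least median concentration, the 5 lowest and 5 highest of these over all genes, and the 2 lowest and 2 highest loci of each list. Others were chosen after their values were seen. Members and lists were chosen with earlier results of these data known.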

Additional observations from a re-analysis of the deposited data

How the results depend on the processing

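The count of lower peaks, their share and their median depend on where 0 lies. Against 41 peaks at least 2-fold lower, 78.6% with a lower mean and a median of -0.53, centring on the median of all peaks gave 10, 58.2% and -0.11, centring on equal totals 10, 58.2% and -0.12, and centring on the 10% most accessible peaks 21, 69.8% and -0.27. Centring within 10 equal classes of mean concentration, added after seeing the data, gave 7, 58.2% and -0.089. The lower share of all peaks moved alike, to 8.64%, 8.80%, 13.9% and 7.69%. Counts also moved with their own definition, and the number of peaks changed with the window. Lower and higher peaks were 21 (19.6%) and 7 (6.54%) of 107 in the gene body only, and 94 and 21 with 100 kb on each side. The median differences in these 2 windows were -0.495 and -0.54. At least 1.5-fold lower were 82 of the 182, a count given without its share over all peaks. The longer motif AGGAATG was in 23 peaks in place of 47, and with it the medians with and without the motif were -0.56 and -0.53 in place of -0.75 and -0.47. Leaving out each gene in turn, the lower count ran from 32 to 41, the higher count from 9 to 11, the share from 76.3% to 80.2% and the median from -0.55 to -0.52. Lower and higher peaks were 34 and 8 with a pseudocount of 8, 39 and 8 without the 25% weakest peaks and 40 and 11 without promoters of other genes, all within 1.5 times the main counts. The promoter peak of Tead4 turned from -0.43 to 0.03 when the peak nearest to any start site was used. No paired analysis was possible because each group is given as 1 mean, and no library could be left out for the same reason. What depth limits could not be given, since the depth of each library is unknown.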
